A study of Mus musculus with 6 samples.

Results

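The genes described here are 43 genes of homologous recombination, the Fanconi pathway and mismatch repair, with the damage checkpoint that works beside them. They were taken by name from a list drawn up with earlier results of these data known, so the choice is not independent of the values below. All 43 were found among the 53378 genes of the deposited table with a value in every library, and all 43 had a mean normalized count of at least 10, so none was lost among the 14840 genes tested. A normalized count is the number of reads on a gene divided by 1 size factor for its library. The cells were mouse neural stem cells (NSCs), grown as neurospheres from the cortex of *Tbl1xr1* flox/flox embryos at E14.5. Both groups carried the floxed allele, in which LoxP sites flank exon V. The 3 GFP libraries (replicates 1, 1_1 and 2) came from NSCs infected with a lentivirus carrying GFP only, and the 3 libraries labelled Cre (replicates 2, 2_2 and 3) from NSCs infected with Cre-GFP, whose recombinase cuts out the floxed part. The study sorted GFP+ cells after infection, and its comparison asked what the loss of *Tbl1xr1*, a subunit of the NCoR/SMRT corepressor complex, does to gene expression in dividing progenitors. The labels do not say whether the libraries came from separate embryos or cultures, or whether 1 and 1_1, or 2 and 2_2, share one, so the p-values measure the spread between these libraries, which may be technical.

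Homologous recombination mends a broken chromosome by trimming its ends, coating the single strand with protein and copying the sister chromatid, and it is used mainly in S and G2 phase. The Fanconi proteins unhook crosslinks at stalled forks and hand the break to recombination, mismatch repair removes copying errors behind the fork, and the Atr and Atm kinases hold the cycle while repair goes on. Neural progenitors divide fast and depend on these pathways, and several of the genes are transcribed with the replication genes at the start of S phase.

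The libraries held between 7510615 and 14828100 reads on genes, with 11161497 at most in GFP and 11893230 at least in the libraries labelled Cre, so the depth moved with the group. *Tbl1xr1* as a whole gene was not lower in the libraries labelled Cre, at 2522, 2189.8 and 2721 in GFP replicates 1, 1_1 and 2 and 3774, 3463 and 2905 in Cre replicates 2, 2_2 and 3 (log2 fold change 0.45 ± 0.14 (SE), limma adjusted p = 0.0600). Values are given in this order of replicates throughout. Its exon V was not analysed here, and the whole-gene count does not check the deletion. The study reports that it genotyped its sorted cells by PCR. It also reports loss of the *Tbl1xr1* mRNA by RT-qPCR and of the protein by Western blot. The whole-gene count here does not show that loss of mRNA, and the reason was not tested. Of 12 markers of neural stem cells all 12 had a mean of at least 10. *Prom1* was near that floor, at 5.51 to 18.7 in GFP and 8.06 to 20.7 in Cre. In the libraries labelled Cre 2 markers were lower (*Nes* and *Sox1*) and 1 higher (*Sox9*). The 12 had a summed normalized count of 39432 to 43128 in GFP and 41069 to 45600 in Cre. The sums of glial markers moved with the group. The astrocyte list summed to 16626 to 18231 in GFP and 21566 to 22138 in Cre, with 4 of 9 tested members higher and *Gfap* under a mean of 10. Of the 9, 2 had a log2 fold change below 0, among them *Aldh1l1* at -1.65 without overlap (limma adjusted p = 0.0650). The oligodendrocyte lineage list summed to 12900.4 to 14823 in GFP and 17819 to 20126 in Cre, most of it *Olig1* and *Olig2*. In it 3 of 7 tested members were higher, and *Sox10*, *Mog* and *Gpr17* were under 10. The neuron list summed to 17704 to 18799 in GFP and 15280 to 17250 in Cre, nearly all of it *Map2* and *Gap43*. In it 1 of 8 tested members was lower, *Gap43*, with a mean of 8711 in GFP and 5196 in Cre. The 1 higher member was *Elavl4*, with 96.6 in GFP and 479 in Cre. *Map2* had 9210 in GFP and 10541 in Cre, without overlap (limma adjusted p = 0.337). Of the 8, 4 had a log2 fold change below 0 and 4 above. *Dcx*, *Neurod1*, *Neurod2* and *Tbr1* were under a mean of 10, and *Stmn2* was listed at 0. The lists of microglia, endothelium and fibroblasts each had 1 marker at a mean of at least 10, with 6 of 7, 5 of 6 and 6 of 7 under it. The microglia list summed to 164 to 206 in GFP and 168 to 274 in Cre, nearly all of it *Csf1r*. The fibroblast list summed to 285 to 329 in GFP and 193 to 309.9 in Cre, nearly all of it *Foxc1*. The sums of the endothelium list were low and did not overlap, with a mean of 36.8 in GFP and 18.2 in Cre. Its 1 tested marker, *Kdr*, had a mean of 24.5 in GFP and 8.74 in Cre. The log2 fold change of *Kdr* was -1.34, without overlap (limma adjusted p = 0.0677). The part of these differences in the values below was not tested, and in bulk RNA fewer cells of a type and less RNA per cell cannot be told apart.

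Of the 43 genes, most had a lower level in the libraries labelled Cre than in GFP, by modest amounts. The log2 fold change, taken on log2(normalized count + 1), was below 0 for 40 of 43 genes, with a median of -0.27 against -0.0010 over all 14840 tested genes. In limma with Benjamini-Hochberg adjustment over all tested genes, 9 of the 43 fell at an adjusted p-value under 0.05 (20.9%) and 0 rose, where 5.22% of all tested genes fell and 4.74% rose. At an unadjusted p-value under 0.05, 17 of the 43 were lower and 0 higher in limma. Of all 14840 tested genes, 1965 were lower and 1813 higher at that cut. The 9 genes were *Rad51ap1*, *Usp1*, *Brip1*, *Exo1*, *Mdc1*, *Chek1*, *Blm*, *Mre11a* and *Fance*, and they fell by 27.6% to 44.8% of their GFP mean. In 22 of the 43 the 3 values of the libraries labelled Cre all lay below the 3 GFP values, against 15.5% of all tested genes, and in 0 they all lay above, against 14.7%. Added over the 43 genes, the normalized counts were 19854, 19420.1 and 19006 in GFP replicates 1, 1_1 and 2, and 15327, 15089 and 15648 in Cre replicates 2, 2_2 and 3, 21.0% lower on average.

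The number of calls depended on single libraries. Without GFP replicate 1 or GFP replicate 1_1 only 1 of the 43 genes passed (*Rad51ap1* and *Brip1*, respectively), without GFP replicate 2 or Cre replicate 2_2 only *Rad51ap1* and *Exo1* passed, and without Cre replicate 2 the count was 11, of which 8 were among the 9. With GFP replicates 1 and 1_1 averaged into 1 sample the count was 1, and with Cre replicates 2 and 2_2 averaged as well it was 2. Over these settings the count of all tested genes that fell also moved, from 774 to between 250 and 1208. Their share was 1.68%, 2.30%, 1.99% and 2.68% without GFP replicate 1, 1_1 or 2 or Cre replicate 2_2. It was 8.14% without Cre replicate 2, 2.08% with GFP replicates 1 and 1_1 averaged, and 2.92% with both pairs averaged. The share of the 43 genes can be read only beside these, and where only 1 of the 43 passed it was close to them. Of 18 alternatives, *Rad51ap1* was past the threshold in 17, *Exo1* in 14, *Brip1* in 13, *Chek1* and *Usp1* in 12, *Mdc1* in 11, and *Blm*, *Mre11a* and *Fance* in 9. The number of the 43 genes below 0 was 37 to 40 and their median -0.35 to -0.25 over all 18. Of the 43 genes, 13 share annotated exon bases (GENCODE M1) with another gene, and 0 of these are among the 9.

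**Figure D1:**
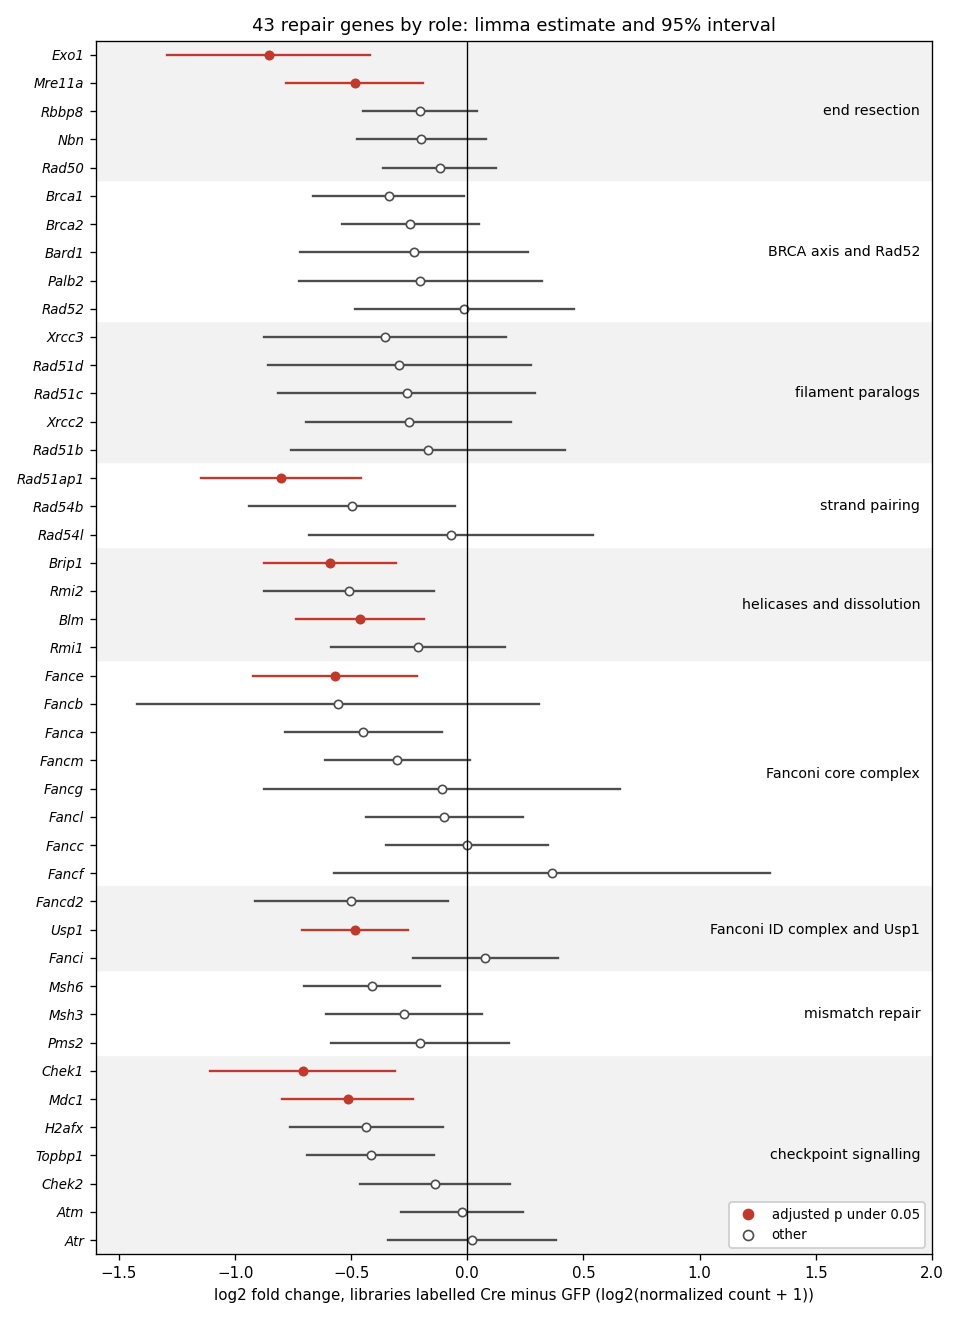
Log2 fold change (libraries labelled Cre minus GFP, on log2(normalized count + 1)) of each of the 43 genes, grouped by role, with limma's 95% interval as a line. Filled red points are the 9 genes with an adjusted p-value under 0.05, and 40 of the 43 points lie left of 0.

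**Figure D2:**
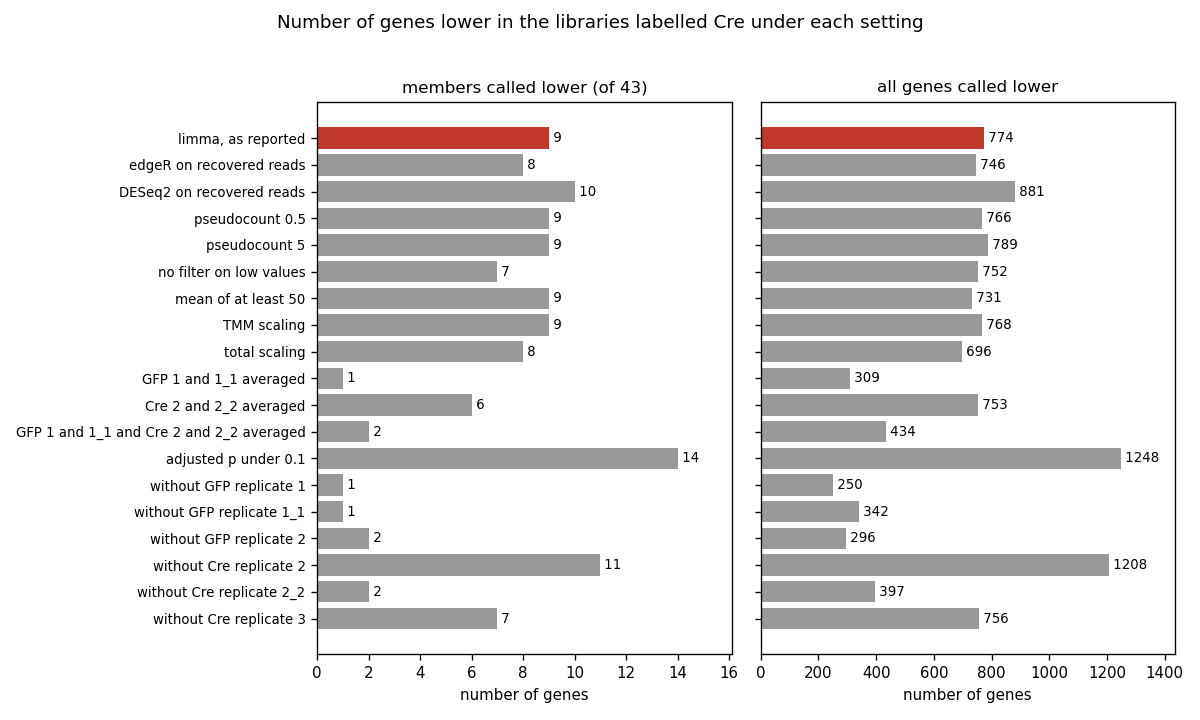
Number of the 43 genes (left) and of all tested genes (right) called lower in the libraries labelled Cre with the fit as reported (red) and under each of 18 other settings (grey), with the counts at the bar ends. The count for the 43 genes runs from 1 to 14, and that for all genes from 250 to 1248.

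The start sites of these genes are shown because many of them carry letters of the kind bound by E2F factors, the activators of S-phase genes. RefSeq promoters of GRCm38.p6, 250 bases before to 50 after the start, matched 32 of the 43 genes. Of 3 E2F words searched on both strands, TTTCCCGC shares 7 bases with TTCCCGCC where they overlap, while TTTGGCGC stands apart. At least 1 of the 3 was in a promoter of 13 of the 32 genes (40.6%) and in 36.1% of their 36 windows, while 3.21% of all 32851 promoter windows and 5.90% of the 12436 windows of tested genes held one. It was in 3 of 7 genes that fell and in 10 of 25 that did not pass the test, and the median log2 fold change was -0.27 for the 13 genes with it and -0.20 for the 19 without. Among the genes just named, it lay in *Rad51ap1*, *Chek1* and *Mdc1* and in the windows of none of *Blm*, *Brip1*, *Fance* and *Mre11a*. The box CCAAT, read by NF-Y, was in 21 of the 32 genes (65.6%) against 37.7% of the windows of tested genes, in 6 of the 7 that fell and in 15 of the 25 that did not pass the test. The cell cycle element TTTGAA was in 2 of the 32 (6.25%), against 11.6%. These are matches of letters and not shown to be bound here. Below, capitals mark the E2F words in the promoters of 3 genes that fell (*Rad51ap1*, chr6:126939538-126939837, minus strand; *Chek1*, chr9:36726609-36726908, minus strand; *Mdc1*, chr17:35841248-35841547, plus strand) and of *Msh6* (chr17:87974800-87975099, plus strand), which lay just outside the threshold. The promoter of *Brip1* (chr11:86201144-86201443, minus strand), which fell and has none of the 3 words, is given beside them.
Rad51ap1: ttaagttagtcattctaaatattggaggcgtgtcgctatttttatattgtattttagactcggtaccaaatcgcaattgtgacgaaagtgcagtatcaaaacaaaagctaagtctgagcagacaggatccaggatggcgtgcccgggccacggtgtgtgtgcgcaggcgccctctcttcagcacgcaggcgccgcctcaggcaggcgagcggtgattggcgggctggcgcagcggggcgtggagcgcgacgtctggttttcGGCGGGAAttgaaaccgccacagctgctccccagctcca
Chek1: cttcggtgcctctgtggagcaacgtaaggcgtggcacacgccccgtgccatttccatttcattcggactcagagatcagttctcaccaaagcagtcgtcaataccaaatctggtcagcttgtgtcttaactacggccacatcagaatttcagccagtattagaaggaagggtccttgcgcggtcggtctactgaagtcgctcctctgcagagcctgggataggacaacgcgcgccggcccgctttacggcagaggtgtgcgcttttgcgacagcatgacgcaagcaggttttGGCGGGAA
Mdc1: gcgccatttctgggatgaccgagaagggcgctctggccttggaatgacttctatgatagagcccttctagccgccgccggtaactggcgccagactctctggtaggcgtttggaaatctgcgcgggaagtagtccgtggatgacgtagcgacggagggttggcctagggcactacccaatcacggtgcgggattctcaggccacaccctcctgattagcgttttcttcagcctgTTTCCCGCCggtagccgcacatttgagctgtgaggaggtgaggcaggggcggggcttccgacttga
Msh6: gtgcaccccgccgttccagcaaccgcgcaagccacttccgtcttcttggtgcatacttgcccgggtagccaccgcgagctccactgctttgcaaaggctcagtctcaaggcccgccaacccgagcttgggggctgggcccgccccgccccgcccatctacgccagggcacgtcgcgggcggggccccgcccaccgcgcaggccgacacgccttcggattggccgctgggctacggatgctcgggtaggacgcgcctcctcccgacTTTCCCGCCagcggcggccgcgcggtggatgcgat
Brip1: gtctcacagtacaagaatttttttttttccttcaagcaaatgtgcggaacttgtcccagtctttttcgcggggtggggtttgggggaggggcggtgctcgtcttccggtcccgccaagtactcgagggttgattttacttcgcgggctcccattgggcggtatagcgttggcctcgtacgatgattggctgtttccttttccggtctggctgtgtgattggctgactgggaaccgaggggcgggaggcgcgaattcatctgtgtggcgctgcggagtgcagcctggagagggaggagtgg
The capitals begin at base 12 of the transcript in *Rad51ap1*, at base 43 in *Chek1* and at base 16 in *Msh6*, and 16 bases before the start in *Mdc1*.

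The genes that trim broken ends included the member with the lowest fold change of the 43. *Exo1* (ENSMUSG00000039748, chromosome 1 of mm10 from 175880768 to 175911396) encodes the exonuclease that lengthens the single strand and also cuts out the mismatched strand in mismatch repair. Its normalized count was 281, 257 and 197 in GFP and 127, 165 and 114 in Cre. The 3 libraries labelled Cre were all lower than the lowest GFP library, from a mean of 245 ± 43.0 in GFP to 135 ± 26.8 in Cre (SD, n = 3 each, log2 fold change -0.86 ± 0.20 (SE), limma adjusted p = 0.0211). *Mre11a* (ENSMUSG00000031928, chromosome 9 of mm10 from 14784654 to 14837125) encodes the nuclease that makes the first cut, within the complex it forms with Rad50 and Nbn. It had 490.05, 477 and 421 in GFP and 305, 337 and 347 in Cre, without overlap between the groups (log2 fold change -0.49 ± 0.13 (SE), limma adjusted p = 0.0436). Its partners did not pass the test. *Rad50*, the ATPase that holds the ends, had 1283 ± 14.3 in GFP and 1182 ± 67.1 in Cre (SD, n = 3 each, log2 fold change -0.12 ± 0.11 (SE), limma adjusted p = 0.546). *Nbn*, which recruits Atm, had 536 ± 20.7 in GFP and 468 ± 38.8 in Cre (SD, n = 3 each, log2 fold change -0.20 ± 0.13 (SE), limma adjusted p = 0.362), and *Rbbp8*, the cofactor that starts the cut, had 795 ± 18.0 in GFP and 689.8 ± 7.50 in Cre (SD, n = 3 each, log2 fold change -0.20 ± 0.11 (SE), limma adjusted p = 0.285). In all 5 resection genes, the called and the uncalled, every library labelled Cre was below every GFP library, and the median log2 fold change was -0.20.

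No gene of the BRCA axis passed the test. *Brca1*, a ubiquitin ligase subunit that commits ends to recombination, had 323, 294 and 260.1 in GFP and 242, 232 and 217 in Cre, lower in each library labelled Cre than in any GFP library but with an adjusted p-value above 0.05 (log2 fold change -0.34 ± 0.15 (SE), limma adjusted p = 0.177). *Brca2*, which acts on the single strand and was the most expressed of the 5, had 530.4, 534 and 477 in GFP and 462, 381 and 459 in Cre, again with no overlap (log2 fold change -0.25 ± 0.13 (SE), limma adjusted p = 0.285). *Bard1*, the partner of Brca1, and *Palb2*, the bridge between Brca1 and Brca2, had log2 fold changes of -0.23 and -0.20 with overlapping groups. *Rad52*, an annealing factor, was at 130.5 ± 10.1 in GFP and 132 ± 36.1 in Cre (SD, n = 3 each, log2 fold change -0.01 ± 0.21 (SE), limma adjusted p = 0.977), a difference whose 95% interval ran from -0.49 to 0.46. The median of the 5 was -0.23.

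The paralogs *Rad51b*, *Rad51c*, *Rad51d*, *Xrcc2* and *Xrcc3*, which help the protein filament form on the single strand, also held no gene past the threshold, with a median log2 fold change of -0.26 over the 5 and a range of -0.36 to -0.17. The median was -0.51 without Cre replicate 3. *Xrcc3* had 112, 83.4 and 131 in GFP and 82.4, 68.0 and 103 in Cre (log2 fold change -0.36 ± 0.24 (SE), limma adjusted p = 0.384), and *Xrcc2* had 127, 99.5 and 107 in GFP and 106, 93.8 and 79.7 in Cre (log2 fold change -0.25 ± 0.20 (SE), limma adjusted p = 0.477). *Rad51c*, with the highest mean of the 5, had 219, 243 and 220.1 in GFP and 175, 131 and 297 in Cre, so that Cre replicate 3 was the highest of all 6 libraries and the other two libraries labelled Cre the lowest (log2 fold change -0.26 ± 0.25 (SE), limma adjusted p = 0.569). Their intervals are wide, and that of *Rad51c* ran from -0.82 to 0.29.

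Of the genes that act on the filament and pair its strand, *Rad51ap1* (ENSMUSG00000030346, chromosome 6 of mm10 from 126923415 to 126939621) had the smallest adjusted p-value of the 43 genes. It encodes a protein that helps the filament pair with the sister chromatid. The counts were 525, 633 and 552 in GFP and 367, 265 and 354 in Cre, and the libraries labelled Cre were all lower, from 570.1 ± 56.4 in GFP to 329 ± 55.4 in Cre (SD, n = 3 each, log2 fold change -0.80 ± 0.16 (SE), limma adjusted p = 0.00936). It was past the threshold in 17 of 18 alternatives, the exception being the fit without GFP replicate 1_1 (limma adjusted p = 0.0558). *Rad54b*, a translocase that remodels the paired strands, had 194, 157 and 152 in GFP and 149.6, 101 and 108 in Cre (log2 fold change -0.50 ± 0.20 (SE), limma adjusted p = 0.150). Its relative *Rad54l* spread widely within the libraries labelled Cre, with 303, 219 and 281 in GFP and 417, 232 and 167 in Cre, so that Cre replicate 2 was the highest of the 6 and Cre replicate 3 the lowest (log2 fold change -0.07 ± 0.28 (SE), limma adjusted p = 0.906). Of the annotated exon bases of *Rad54l*, 15.4% overlap *Lrrc41* on the opposite strand, and the sources used here do not say whether strand was used in counting.

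Among the helicases that unwind recombination intermediates, *Brip1* and *Blm* fell. *Brip1* (ENSMUSG00000034329, chromosome 11 of mm10 from 86058136 to 86201215), the Brca1-bound helicase that is also a Fanconi protein, had 456, 417 and 464 in GFP and 298, 292 and 295 in Cre. The 3 libraries labelled Cre lay within a few counts of each other and well under GFP, from 446 ± 25.3 in GFP to 295 ± 3.00 in Cre (SD, n = 3 each, log2 fold change -0.59 ± 0.13 (SE), limma adjusted p = 0.0154). *Blm* (ENSMUSG00000030528, chromosome 7 of mm10 from 80454993 to 80535148), the helicase that dissolves crossed chromatids, had 590.1, 632 and 547 in GFP and 447, 405 and 429 in Cre, without overlap (log2 fold change -0.46 ± 0.13 (SE), limma adjusted p = 0.0409). Of the proteins that hold Blm to its topoisomerase, *Rmi2* had 401 ± 60.0 in GFP and 281 ± 43.2 in Cre (SD, n = 3 each) without overlap but above the threshold (log2 fold change -0.51 ± 0.17 (SE), limma adjusted p = 0.0784), and *Rmi1* had 246 ± 47.6 in GFP and 210.1 ± 13.7 in Cre (SD, n = 3 each) with overlap (log2 fold change -0.21 ± 0.17 (SE), limma adjusted p = 0.478). The median over the 4 was -0.49.

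**Figure D3:**
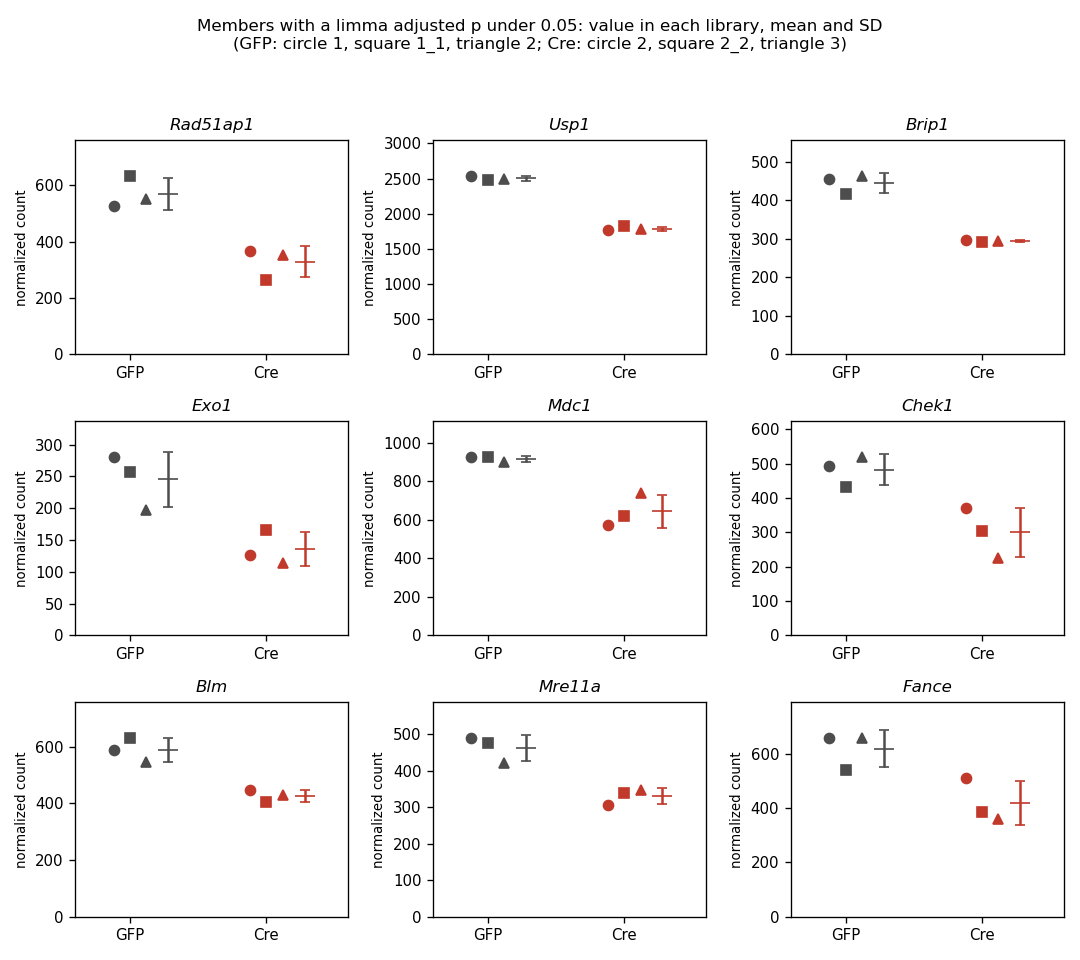
Normalized count (from 0) of each of the 9 genes that fell, in the 3 GFP libraries (grey) and the 3 libraries labelled Cre (red), with the mean and SD to the right of the points. The groups do not overlap in any of the 9 panels, and *Usp1* and *Brip1* show the least spread relative to the mean within the libraries labelled Cre.

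In the Fanconi core complex, the ubiquitin ligase that marks crosslinked forks, 1 of 8 genes fell. *Fance* (ENSMUSG00000007570, chromosome 17 of mm10 from 28313530 to 28326574), the subunit that binds Fancd2, had 658, 539.8 and 659 in GFP and 512, 387 and 359 in Cre. Cre replicate 2 was close under GFP replicate 1_1 and the other libraries were further apart, with means of 619 ± 68.5 in GFP and 419 ± 81.8 in Cre (SD, n = 3 each, log2 fold change -0.57 ± 0.16 (SE), limma adjusted p = 0.0466). *Fanca*, a scaffold of the complex, had 346, 271 and 320.1 in GFP and 229, 246 and 209 in Cre and did not overlap, with an adjusted p-value above the threshold (log2 fold change -0.45 ± 0.15 (SE), limma adjusted p = 0.0927). *Fancm*, the translocase that anchors the complex to DNA, was the third without overlap, at a log2 fold change of -0.30. *Fancl*, the ligase itself, and *Fancc* had -0.10 and -0.00090. *Fancf* was the only one of the 8 above 0, at 0.36 with an interval of -0.57 to 1.30, and like *Fancb* and *Fancg* it had a mean under 50. The median over the 8 was -0.21, and it was -0.34 without Cre replicate 2 and -0.12 without Cre replicate 3.

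The target of that ligase is the pair of Fancd2 and Fanci, which clamps on DNA, and Usp1 takes the mark off again. *Usp1* (ENSMUSG00000028560, chromosome 4 of mm10 from 98923810 to 98935543) was the most expressed of the 43 genes by normalized count. It had 2540.2, 2484 and 2487 in GFP and 1765, 1821 and 1783 in Cre, with a small spread in each group and no overlap, and fell from 2504 ± 31.6 in GFP to 1789.6 ± 28.4 in Cre (SD, n = 3 each, log2 fold change -0.48 ± 0.10 (SE), limma adjusted p = 0.0150). *Fancd2* had 218, 197 and 161 in GFP and 157, 114 and 136 in Cre without overlap (log2 fold change -0.50 ± 0.19 (SE), limma adjusted p = 0.123), while *Fanci* was not lower, at 317 ± 27.0 in GFP and 334 ± 29.4 in Cre (SD, n = 3 each, log2 fold change 0.08 ± 0.14 (SE), limma adjusted p = 0.785). Per kilobase of annotated exon, the GFP mean was 671 for *Usp1*, 55.0 for *Fanci* and 24.2 for *Fancd2*, and only the *H2afx* level, at 888, was above that of *Usp1* among the 43. *Fanci* shares 14.8% of its exon bases with *Polg* on the opposite strand and *Fancd2* 3.24% with *4931417G12Rik*, also on the opposite strand.

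No mismatch repair gene of the list passed the test, although all 3 were below 0. *Msh6*, which helps find single mismatches, had 658, 614 and 545 in GFP and 477, 479 and 412 in Cre, without overlap (log2 fold change -0.41 ± 0.13 (SE), limma adjusted p = 0.0777). *Msh3*, which helps find small loops, had 330.4, 338 and 260.1 in GFP and 246, 246 and 271 in Cre (log2 fold change -0.27 ± 0.15 (SE), limma adjusted p = 0.297), and GFP replicate 2 lay below Cre replicate 3. *Pms2*, a subunit of the nicking enzyme, had 149 ± 18.2 in GFP and 128 ± 6.70 in Cre (SD, n = 3 each, log2 fold change -0.21 ± 0.17 (SE), limma adjusted p = 0.506).

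In the checkpoint, *Chek1* and *Mdc1* fell and the kinases at its head did not pass the test. *Chek1* (ENSMUSG00000032113, chromosome 9 of mm10 from 36708482 to 36726658), the kinase that Atr switches on at stalled forks, had 495, 433 and 520.1 in GFP and 371, 304 and 226 in Cre. All 3 libraries labelled Cre were lower, and Cre replicate 3 was the lowest, with means of 483 ± 44.8 in GFP and 300.01 ± 72.5 in Cre (SD, n = 3 each, log2 fold change -0.71 ± 0.18 (SE), limma adjusted p = 0.0321). *Mdc1* (ENSMUSG00000061607, chromosome 17 of mm10 from 35841495 to 35859670), the adaptor that reads the damage mark on chromatin, had 926, 924 and 898 in GFP and 573, 622 and 739 in Cre, with the 3 GFP libraries close together and above every library labelled Cre (log2 fold change -0.51 ± 0.13 (SE), limma adjusted p = 0.0291). *Topbp1*, which activates Atr, lay nearest to the threshold outside it, with 1501 ± 179 in GFP and 1119.8 ± 45.2 in Cre (SD, n = 3 each) and no overlap (log2 fold change -0.42 ± 0.12 (SE), limma adjusted p = 0.0563). *H2afx*, the histone whose phosphorylation makes the damage mark, had 1205 ± 163 in GFP and 893 ± 144 in Cre (SD, n = 3 each, log2 fold change -0.43 ± 0.15 (SE), limma adjusted p = 0.0936), with Cre replicate 3 above GFP replicate 1. *Atr* and *Atm*, the kinases that sense stalled forks and breaks, were at log2 fold changes of 0.02 and -0.02, with intervals of -0.34 to 0.38 and -0.28 to 0.24. *Chek2*, the kinase under Atm, was at -0.14. Just inside the threshold were *Fance*, *Mre11a* and *Blm* (limma adjusted p = 0.0466, 0.0436 and 0.0409), and just outside were *Topbp1*, *Msh6* and *Rmi2* (0.0563, 0.0777 and 0.0784).

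For 8 pairs of genes that act together, chosen with the values known, the ratio of normalized counts was taken in each library, and it is given as a description. An exact two-sided permutation test of 3 against 3 libraries cannot give a p-value below 0.1. The smallest p-value of that test, adjusted over the 8 pairs, was 0.2. *Mre11a* per *Rad50* was 0.385, 0.367 and 0.330 in GFP and 0.276, 0.277 and 0.284 in Cre, in the order of replicates above. *Mre11a* per *Nbn* was 0.881, 0.888 and 0.819 in GFP and 0.712, 0.667 and 0.740 in Cre. *Fancd2* per *Fanci* was 0.645, 0.689 and 0.496 in GFP and 0.456, 0.380 and 0.381 in Cre. In these pairs the ratio of every library labelled Cre was below every GFP ratio. The same held for *Topbp1* per *Atr*, with 7.21, 7.24 and 6.95 in GFP and 5.04, 5.91 and 4.91 in Cre. The other ratios overlapped: *Blm* per *Rmi1* had means of 2.45 ± 0.489 in GFP and 2.03 ± 0.0310 in Cre, *Rmi2* per *Rmi1* 1.64 ± 0.179 and 1.35 ± 0.296, *Chek1* per *Chek2* 1.57 ± 0.317 and 1.08 ± 0.301, and *Bard1* per *Brca1* 0.576 ± 0.161 and 0.606 ± 0.0751 (SD, n = 3 each). Ratios do not depend on the scaling of the libraries, but they carry the spread of both genes.

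**Figure D4:**
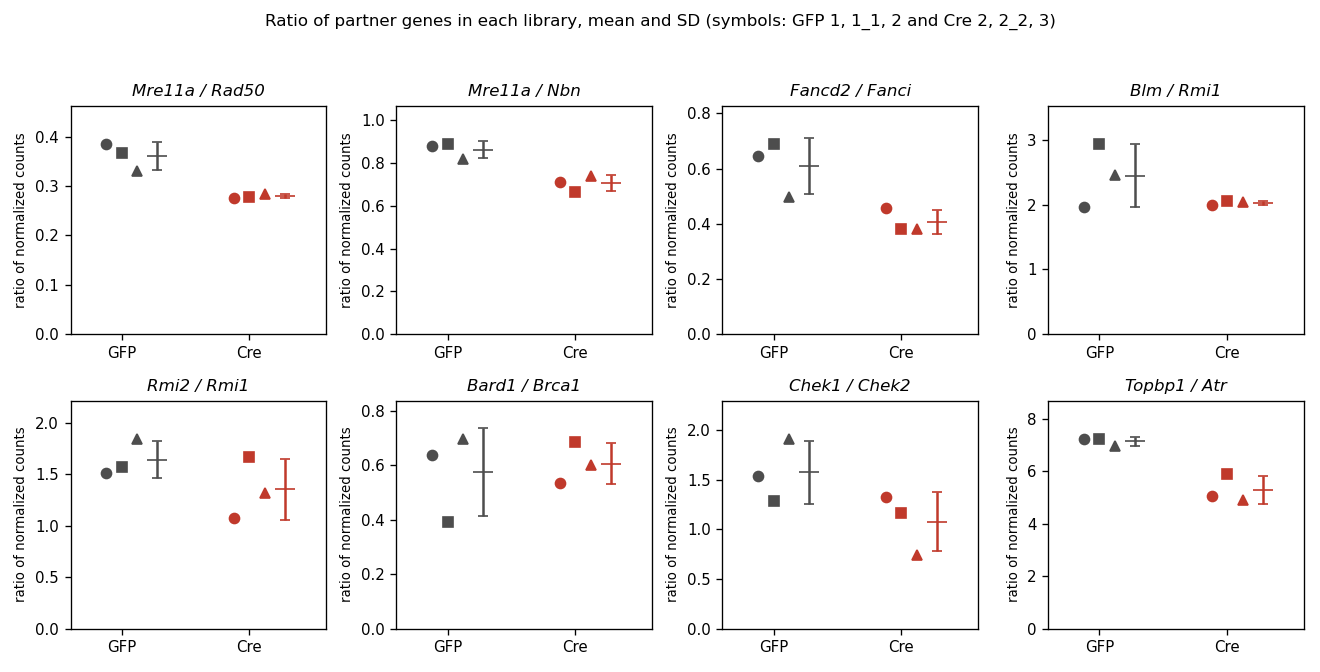
Ratio of the normalized counts of 2 partner genes in each library (axes from 0), with GFP in grey, libraries labelled Cre in red, and the mean and SD beside the points. The groups are apart for *Mre11a* per *Rad50*, *Mre11a* per *Nbn*, *Fancd2* per *Fanci* and *Topbp1* per *Atr*, and overlap for the other 4 pairs.

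The lower values were spread over the 3 libraries labelled Cre. Relative to the GFP mean of each gene, the median log2 value of the 43 genes was -0.32, -0.32 and -0.33 in Cre replicates 2, 2_2 and 3, and 0.06, 0.01 and -0.04 in GFP replicates 1, 1_1 and 2. In Cre replicates 2, 2_2 and 3, 31, 35 and 29 of the 43 genes were below every GFP library. This was not counted over all tested genes, so these numbers have no background here and only describe the 43. Each of the 3 libraries labelled Cre was the lowest for 3 of the 9 genes that fell. These 9 were called from the same values, so this count is only a description too.

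Genes of these pathways outside the list were read from the same fit. Of 52 tested of 54 further recombination, Fanconi and mismatch repair genes, 2 fell and 0 rose, beside 5.22% of all tested genes that fell, with a median of -0.20 and 38 below 0. They were *Apitd1*, a histone-fold partner of Fancm (384 to 222, log2 fold change -0.78 ± 0.14 (SE), limma adjusted p = 0.00559), and *Rpa1*, which coats single-stranded DNA (820.2 to 543, -0.59 ± 0.13, 0.0146). Of 18 further checkpoint genes 5 fell and 0 rose, namely *Timeless*, *Rad9a*, *Clspn*, *Rad1* and *Rif1*, with log2 fold changes from -0.85 to -0.43. *Timeless* and *Clspn* travel with the fork and carry the signal from Atr to Chek1, and *Rad9a* and *Rad1* are parts of the clamp that Topbp1 binds. The 5 checkpoint genes were 1 without GFP replicate 1, 2 without GFP replicate 1_1 or GFP replicate 2, and 3 without Cre replicate 2_2. The 2 genes of the first list were 1 without GFP replicate 1 or Cre replicate 2_2, 3 without Cre replicate 3 and 5 without Cre replicate 2. The share of all tested genes that fell moved in these settings too, as given above, and was 5.09% without Cre replicate 3. Of the recombination, Fanconi and mismatch repair genes 2 rose without Cre replicate 2, and 1 checkpoint gene rose without Cre replicate 3.

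Medians of other repair and growth lists are given beside the -0.27 of the 43 genes, with no test of the difference. The replication fork list had a median of -0.49, with 13 of 33 genes lower and 0 higher, *Mcm5* and *Mcm3* having the smallest adjusted p-values. It counted 4, 7, 5 and 5 without GFP replicate 1, 1_1 or 2 or Cre replicate 2_2, and 19 without Cre replicate 2. In the same settings and order, 1.68%, 2.30%, 1.99%, 2.68% and 8.14% of all tested genes fell. The counts of the lists below have to be read beside these shares too. Base excision repair had a median of -0.29 with 5 of 18 lower and 0 higher (0 lower without GFP replicate 1 and 1 without GFP replicate 1_1, GFP replicate 2 or Cre replicate 2_2). Nucleotide excision repair was at -0.01 with 1 of 21 lower and 1 higher, and non-homologous end joining, which works throughout the cycle, at 0.09 with 1 of 10 lower and 0 higher. The calls of both lists were lost without GFP replicate 1, GFP replicate 1_1 or Cre replicate 2_2, those of nucleotide excision repair also without GFP replicate 2, and its higher call also without Cre replicate 3. With 1 library left out, 0 to 1 genes were higher in base excision repair and likewise in non-homologous end joining. Of all tested genes, 308 to 1188 were higher in those fits. A list of 12 proliferation genes had a median of -0.24, with 0 past the threshold in limma, edgeR and DESeq2, and 4 without Cre replicate 2. In limma 4 of the 12 were lower and 0 higher at an unadjusted p-value under 0.05. Of all 14840 tested genes, 1965 were lower and 1813 higher at that cut. Of 5 E2F activators and partners, *E2f1* fell, from 471 to 203 (log2 fold change -1.21 ± 0.17 (SE), limma adjusted p = 0.00144). The median of the E2F list was -0.32, with 1 of 5 past the threshold. Log2 fold changes were below 0 for 5 of 5 E2F genes and 11 of 12 proliferation genes. The part of both lists in the lower repair transcripts was not tested.

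**Figure D5:**
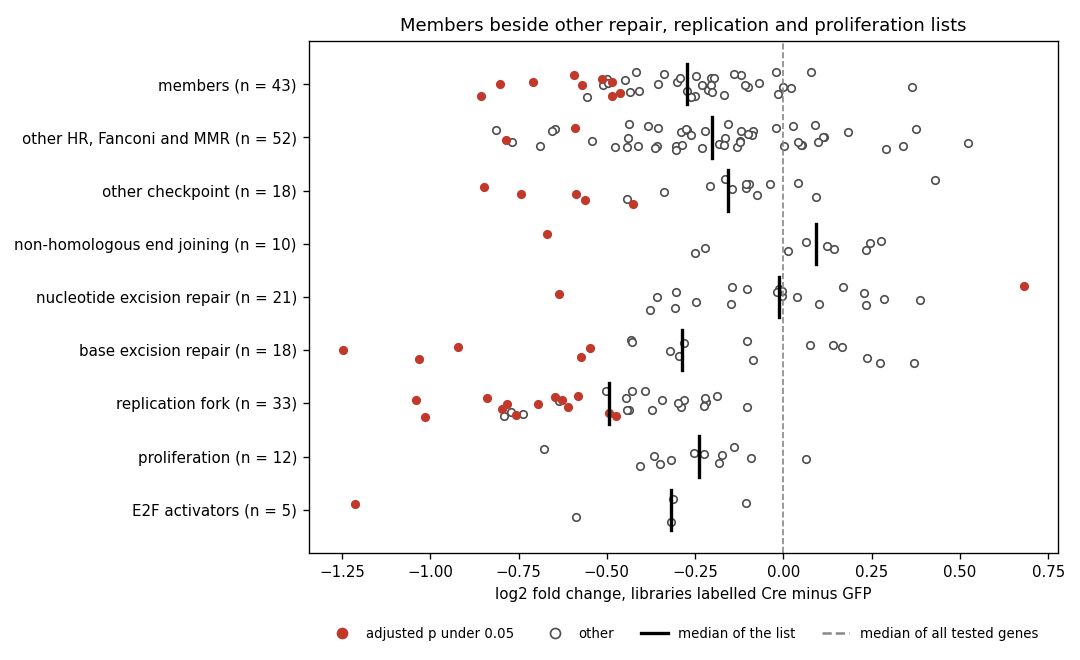
Log2 fold change (libraries labelled Cre minus GFP) of every tested gene of the 43 (top row) and of 8 other lists, with filled red points for an adjusted p-value under 0.05, a black bar for the median of each list and a dashed line for the median of all tested genes. The medians run from -0.49 for the replication fork to 0.09 for non-homologous end joining, with the 43 genes at -0.27.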

How the data were processed

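RNA-seq was analysed for 6 libraries of mouse NSCs, 3 infected with GFP lentivirus and 3 with Cre-GFP lentivirus, grouped by the sample labels. The authors prepared libraries with the TruSeq RNA v2 kit from total RNA, aligned reads with TopHat to mm9 and mm10 by the study's methods and with STAR 2.7 to mm10 by the submitters' processing notes, and ran DESeq2. The counter, its strand setting and the annotation are not given in the sources used here. The authors deposited, per gene and library, a signal that is the read count divided by 1 size factor. The table also holds their log2 fold changes, standard errors, statistics, p-values and adjusted p-values, which were not used. All 6 columns of per-library values were used (0 left out). Of 53379 rows, 1 without a value in 1 library was left out.

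The value of 1 read was found from each library's low values. With it 100% of the values were whole within a tolerance of 0.1, with a largest deviation of 6.8e-05, and totals were 7510615 to 14828100 reads. Precision follows these totals, with 12 to 2768 reads per library on the 43 genes.

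The test was limma 3.58.1 (R 4.3.3; lmFit and trended eBayes) on the log2 of the normalized count plus 1, over 14840 genes with a mean of at least 10, two-sided, with Benjamini-Hochberg adjustment and a threshold of 0.05. Fold changes on this scale understate the change of low genes. The script was tested on simulated counts. The 18 alternatives were edgeR 4.0.16 and DESeq2 1.42.0 on the recovered reads, where they called 8 and 10 of the 43 genes lower, pseudocounts of 0.5 and 5, no filter, a mean of at least 50, TMM and total scaling, 3 ways of averaging libraries with like numbers, a threshold of 0.1, and each library left out in turn.

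The 43 genes, their roles, the other lists and the motifs were chosen with earlier results of these data known, so lists are given by counts and medians with no set test. Values in every library are given for each of the 43 past the threshold and, in roles with 0 or 1 of these, for the 2 genes with the smallest adjusted p-value and the 1 with the highest mean. Further genes of the same pathways were named when past the threshold, and from other lists at most 4 with the smallest adjusted p-value. Coordinates and promoters came from RefSeq tables of GRCm38.p6, read with Python 3.11.15, and exon lengths and overlaps from GENCODE M1. Figures were drawn with matplotlib 3.10.9. Some genes of these pathways are not reported here.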

Additional observations from a re-analysis of the deposited data

How the results depend on the processing

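The number of the 43 genes called lower, 9 in limma, was 1 with GFP replicates 1 and 1_1 averaged, 2 with Cre replicates 2 and 2_2 averaged as well, 14 at an adjusted p-value under 0.1, and 1 to 11 with 1 library left out. The count over all tested genes, 774, was 309, 434 and 1248 in the first 3 of these settings and 250 to 1208 with 1 library left out. The cause was not tested. Averaging libraries or leaving 1 out also leaves fewer degrees of freedom, and the part of this was not tested either. The median of the Fanconi core, -0.21, was -0.30 with a mean of at least 50, which left out its 3 lowest genes, and -0.34 to -0.12 with 1 library left out. With 1 library left out the medians were -0.27 to -0.085 for the further checkpoint genes (-0.16) and -0.53 to -0.45 for the replication fork (-0.49), whose count of 13 lower ran from 4 to 19. The sign changed for 7 genes, none of them past the threshold. *Rad54l* was at 0.027 in edgeR and 0.027 in DESeq2, and at -0.43 to 0.23 with 1 library left out. *Rad52* was at 0.016 in edgeR, 0.017 in DESeq2 and 0.010 with GFP averaged, and at -0.22 to 0.17 with 1 library left out. *Fancc* was at 0.0011 in edgeR, 0.0031 in DESeq2, 0.00046 with TMM, 0.0055 with total scaling, 0.028 with Cre averaged, 0.012 with both averaged, and at -0.056 to 0.071 with 1 library left out. *Atm* was at 0.0021 with Cre averaged and at -0.064 to 0.063 with 1 library left out. With 1 library left out, *Rad51c* ran from -0.58 to 0.0042, *Fancg* from -0.38 to 0.061 and *Atr* from -0.062 to 0.13. Of the values of single genes over the 18 alternatives, 677 kept sign and side of the threshold, 56 lost the call, 10 gained it and 27 changed sign. No paired analysis was possible because the groups share only 1 replicate number. Depth limits *Fancb*, *Fancf*, *Fancg* and *Rad51b*, each with a mean under 50.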

Other observations

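Base excision repair, which replaces damaged single bases, held 5 genes that fell among 18 tested, as many as the further checkpoint list. *Ung*, which removes uracil from DNA, had a normalized count of 646, 388 and 760.2 in GFP replicates 1, 1_1 and 2 and 330.3, 232 and 184 in Cre replicates 2, 2_2 and 3. *Parp1*, the sensor of nicked strands, had 2827, 2705 and 2586 in GFP and 2003, 1729 and 1830.1 in Cre, in the same order. The groups of both genes did not overlap, with log2 fold changes of -1.25 ± 0.26 and -0.55 ± 0.11 (SE; limma adjusted p = 0.0123 and 0.0120). The 5 were 0 without GFP replicate 1 and 1 without GFP replicate 1_1, GFP replicate 2 or Cre replicate 2_2. In the same settings and order, 1.68%, 2.30%, 1.99% and 2.68% of all tested genes fell. In non-homologous end joining the 1 gene that fell of 10 tested was *Xrcc6*, a subunit of the Ku ring that caps broken ends, with 388, 451 and 301 in GFP and 235, 228 and 244 in Cre. Its call was lost without GFP replicate 1, GFP replicate 1_1 or Cre replicate 2_2.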
